A study of Oncorhynchus kisutch with 226 samples.

Results

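The fish described are the 12 coho salmon (Oncorhynchus kisutch) caught in the ocean in winter, of 226 fish with liver arrays in the series. They were chosen by their season label. The catch area label divided them into 7 west coast fish (WCVI in the labels) and 5 fish of the middle Strait of Georgia (mid_SoG). No measured value entered that rule, though it was set with earlier results of these data known. All were caught in 2009, and each fish was 1 array and 1 replicate. Liver RNA of each fish was hybridised together with a pool of liver RNA of the whole series, and the deposited value per probe is the log2 ratio of the 2 channels. The ratio is read here as fish over pool. That direction is likely and not stated: probes that vary more between fish had lower means, as a pool in the denominator gives, and all fish carried one dye and the pool the other.

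The liver of a salmon handles the lipids, glucose and amino acids of the diet, makes most plasma proteins, and releases growth factors in response to growth hormone. In maturing females it also makes yolk and egg envelope proteins under oestrogen, so liver RNA is known to differ between the sexes as fish approach maturity. Coho leave rivers as smolts and feed at sea before returning to spawn. The probes are not paired with genes in the sources used here, so results are given by probe identifier, which is the column and row of the spot, and the labelled tissue could not be checked against its marker genes.

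The areas differed in more than place. The west coast fish were 4 females and 3 males, 5 of hatchery and 2 of wild origin, 6 of the Puget_Sound stock and 1 of the stock labelled North. The middle Strait fish were 1 female and 4 males. The males were wild fish of the Fraser stock and the female was a hatchery fish of the S_Main stock, so no stock occurred in both areas. Of the 7 west coast fish 5 were caught at 1 position and 4 lay on 1 slide, and the 4 middle Strait males were caught at 1 position and hybridised on 1 slide. Of 5 winter slides, 1 held both areas, with 1 female of each. Stock, catch position and area cannot be told apart in these fish, and slide and area only through that pair. The 3 west coast males were all hatchery fish on 1 slide. Among males, origin and slide thus cannot be told apart from area either.

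The catch positions did not match the area label in the plain sense of the word. The 7 west coast fish of winter were caught between 48.24 and 48.375 degrees north and between 124.133 and 124.472 degrees west, which is the Strait of Juan de Fuca, the passage that joins the Strait of Georgia and Puget Sound to the open ocean. The 10 summer fish with the same area label were caught between 125.602 and 127.469 degrees west, off the open coast of Vancouver Island. The 10 fall fish with that label were caught between 123.769 and 127.286 degrees west. The 5 middle Strait winter fish came from between 49.422 and 49.665 degrees north. The label is kept below as the name of the group.

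West coast winter fish were heavier for their length. Fork length, from the snout to the fork of the tail, averaged 34.7 ± 2.80 cm in the 7 west coast fish and 34.6 ± 0.844 cm in the 5 middle Strait fish (SD), a difference of 0.06 cm (exact permutation test, two-sided, p = 0.957, adjusted over the 3 body measures 0.957). Total mass averaged 534 ± 108 g in west coast fish and 463 ± 41.8 g in middle Strait fish (exact permutation p = 0.199, adjusted 0.299). Condition factor, 100 times the mass in g over the cube of the length in cm, lay between 1.17 and 1.35 with a median of 1.27 in west coast fish. It was 1.05, 1.14, 1.12, 1.07 and 1.18 in the 5 middle Strait fish, and only the leanest west coast fish, a male, lay below the highest of these, the female. Condition factor was thus higher on the west coast by 0.152 on average, at 1.26 ± 0.0592 in west coast fish and 1.11 ± 0.0522 in middle Strait fish (exact permutation p = 0.00505, adjusted 0.0152). That test took no account of sex, and the west coast fish held more females. On the west coast it ranged from 1.27 to 1.35 in females and from 1.17 to 1.24 in males. In the middle Strait the female also lay above the males, and in males alone the areas differed by 0.114. Among males alone, west coast fish were also longer and heavier, and all were of hatchery origin while the middle Strait males were all wild. Fork length averaged 37.0 ± 0.954 cm in 3 west coast males and 34.5 ± 0.877 cm in 4 middle Strait males, and total mass 614 ± 48.9 g in west coast males and 450 ± 32.9 g in middle Strait males (SD), both without overlap. Condition factor averaged 1.21 ± 0.0337 in these west coast males and 1.10 ± 0.0432 in these middle Strait males, also without overlap. There the exact permutation p was 0.0571 for all of length, mass and condition factor, which is the smallest that 35 splits of the fish allow in a two-sided test.

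**Figure D1:**
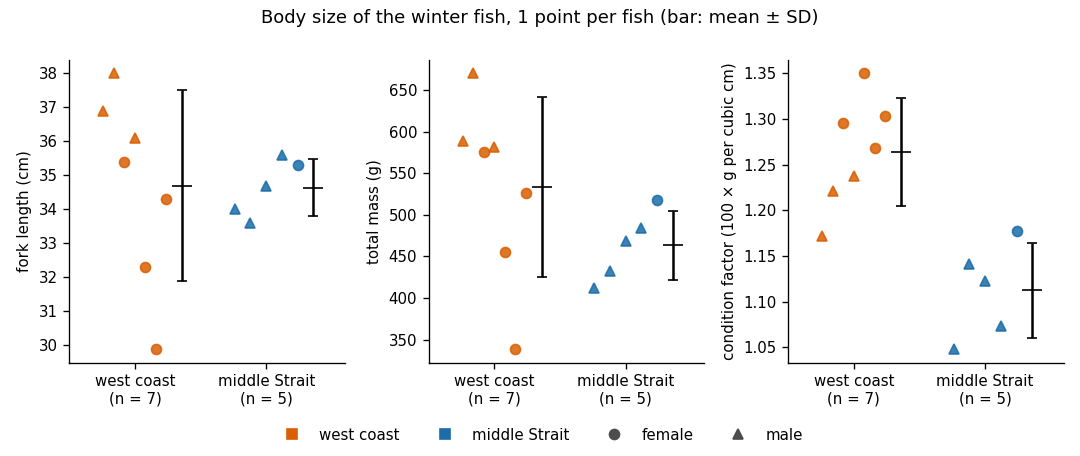
Fork length (cm), total mass (g) and condition factor of the winter fish, 1 point per fish, with the mean and SD beside the points; west coast fish are at the left of each panel, and circles are females. The groups overlap in length and mass, though not among the males, and in condition factor 1 west coast male at 1.17 lies just below the middle Strait female at 1.18.

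The arrays of the areas were of like coverage. Between 20321 and 30826 probes were measured on the west coast arrays and between 20896 and 30813 on the middle Strait arrays (exact permutation p = 0.763 for the means), and array medians lay near 0. Over all pairs of fish, the median Pearson correlation of arrays across probes was 0.387 between areas (35 pairs), 0.473 within the west coast (21 pairs) and 0.531 within the middle Strait (10 pairs). Probes are not independent replicates, and pairs within an area share slides more often. The 2 females on the shared slide correlated at 0.422.

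To ask which liver transcripts differed between the areas in winter, the ratios were fitted with limma, with sex as a covariate and slide as a random block, over the 19489 probes measured on at least 80% of the 12 arrays. At an adjusted p below 0.05, 92 probes were called, or 0.472% of those tested. Of these, 82 were higher on the west coast (0.421% of the tested probes) and 10 were lower (0.0513%). Every called difference was at least 1 on the log2 scale, that is 2-fold, and 16 of the higher and 1 of the lower probes differed by at least 2. The median difference was 1.61 over the higher probes and -1.29 over the lower ones, against -0.01 over all tested probes. The direction was far from balanced among the calls, while 48.8% of all tested probes had a difference above 0.

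The 2 areas did not overlap at 64 of the 82 higher probes and at 7 of the 10 lower probes, and 2.77% of all tested probes had areas that did not overlap. Summed up per fish, the median ratio of the 82 higher probes lay between 0.21 and 1.13 in the 7 west coast fish, with the 3 males at 1.13, 0.73 and 0.84. It was -0.87, -0.52, -0.83, -0.97 and -1.18 in the 5 middle Strait fish, lowest in the female. The median of the 10 lower probes lay between -0.45 and -0.01 in the west coast fish and was 0.80, 0.75, 1.08, 0.87 and 1.43 in the middle Strait fish, highest in the female. Both the counts of called probes without overlap and these medians describe the selection, since the same values chose the probes.

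The number of calls depended on the model and on single fish. No probe was called by limma with slide as a fixed block, where the female pair alone gives the difference (2182 of 19015 probes at an unadjusted p below 0.05, 2470 in the model above), in a single fit of all 226 fish (1538), with condition factor as a further covariate (978), in 7 males alone (1714) or in females alone, which set 4 west coast fish against 1 middle Strait fish (2291), whereas 345 were called with no slide block and 182 with the slide correlation estimated from the winter fish alone. Within each sex condition factor did not overlap between the areas. Males lay between 1.17 and 1.24 on the west coast and between 1.05 and 1.14 in the middle Strait. Females lay between 1.27 and 1.35 on the west coast, with 1.18 in the middle Strait. The fit with condition factor could thus hardly tell it from area. Leaving out west coast fish 1 to 5 in turn left 33, 57, 56, 61 and 48 calls. Leaving out the middle Strait males 1, 2 and 4 left 24, 150 and 51, and leaving out the middle Strait female left 10.

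**Figure D2:**
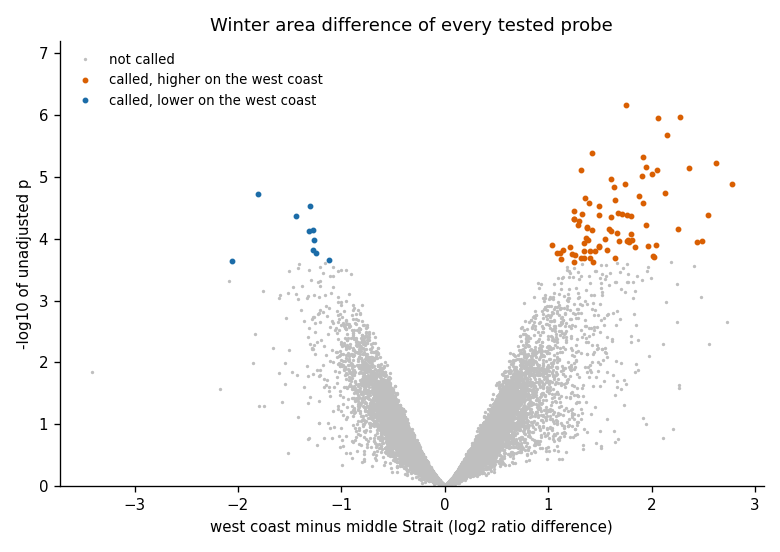
Difference of the winter areas for each tested probe (west coast minus middle Strait, log2) against the -log10 of its unadjusted p from limma, with the 82 called higher and 10 called lower probes in colour. The called probes lie at differences of 1 or more on the log2 scale, with more of them on the side of the west coast.

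The largest called difference was at C148R164. Its log2 ratio ranged from 0.28 to 2.03 in the west coast fish, with a median of 0.99, and was -0.84, -1.88, -1.08, -0.50 and -2.68 in the middle Strait fish. All 7 west coast fish lay above all 5 middle Strait fish. The mean was 1.07 ± 0.60 in west coast fish and -1.40 ± 0.88 in middle Strait fish (SD, n = 7 and 5), and the difference with sex in the model was 2.77 (SE 0.45, 95% interval 1.83 to 3.72, 6.84-fold, limma adjusted p = 0.0162). It was 2.68 in the single fit of all 226 fish (limma adjusted p = 0.0898), 4.71 under a fixed slide block (limma adjusted p = 0.0976) and 3.28 with condition factor as a covariate (limma adjusted p = 0.956), so the call was lost without a smaller difference in the last 2. Without the middle Strait female it was 1.95 (limma adjusted p = 0.163).

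C250R166 separated the areas as widely. It ranged from 0.67 to 2.65 in the west coast fish, with a median of 1.28, and was -0.52, -0.31, -0.69 and -0.50 in the middle Strait males, while the middle Strait female had no value. The 2 highest ratios, 2.65 and 2.55, were in west coast males. The difference was 2.62 (SE 0.38, limma adjusted p = 0.0139), from a mean of 1.49 ± 0.80 in west coast fish and -0.51 ± 0.16 in middle Strait fish (SD, n = 7 and 4). It was no longer called without the sex covariate (1.90, limma adjusted p = 0.0678) or with origin as a further covariate (2.60, limma adjusted p = 0.0711). The call was also lost in the single fit of all 226 fish (1.96, limma adjusted p = 0.234) and in males alone (2.67, limma adjusted p = 0.110). With no middle Strait female measured, the difference with sex in the model rests mainly on those males. They were 3 hatchery fish of the west coast and 4 wild fish of the middle Strait. With no slide block the difference equalled that in males alone (2.67). With condition factor as a covariate the difference was 3.02, not called (limma adjusted p = 0.956).

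Of the probes lower on the west coast, C074R090 had the largest difference. It ranged from -3.51 to -0.90 in the west coast fish, with a median of -1.71, and was 0.13, -0.38, -0.05, -0.32 and 0.44 in the middle Strait fish. The areas did not overlap, and the difference was -2.06 (SE 0.43, limma adjusted p = 0.0493), with means of -1.94 ± 0.86 in west coast fish and -0.04 ± 0.34 in middle Strait fish (SD, n = 7 and 5). This call lies at the threshold: 17 of 28 alternative fits lost it, with a difference below 0 in every one of the 28. It was -2.06 in the single fit of all fish (limma adjusted p = 0.215), -3.95 under a fixed slide block (limma adjusted p = 0.0895) and -2.36 with condition factor (limma adjusted p = 0.956).

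C225R164 was lower on the west coast with less spread. It ranged from -1.85 to -0.77 in the west coast fish, with a median of -1.42, and was 0.29, 0.15, -0.10 and 0.76 in the 4 middle Strait fish with a value. All west coast fish lay below them. The difference was -1.80 (SE 0.29, 95% interval -2.43 to -1.18, limma adjusted p = 0.0194), with means of -1.40 ± 0.41 in west coast fish and 0.28 ± 0.36 in middle Strait fish (SD, n = 7 and 4), and it was -1.50 without the middle Strait female (limma adjusted p = 0.175) and -0.96 with condition factor as a covariate (limma adjusted p = 0.972).

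**Figure D3:**
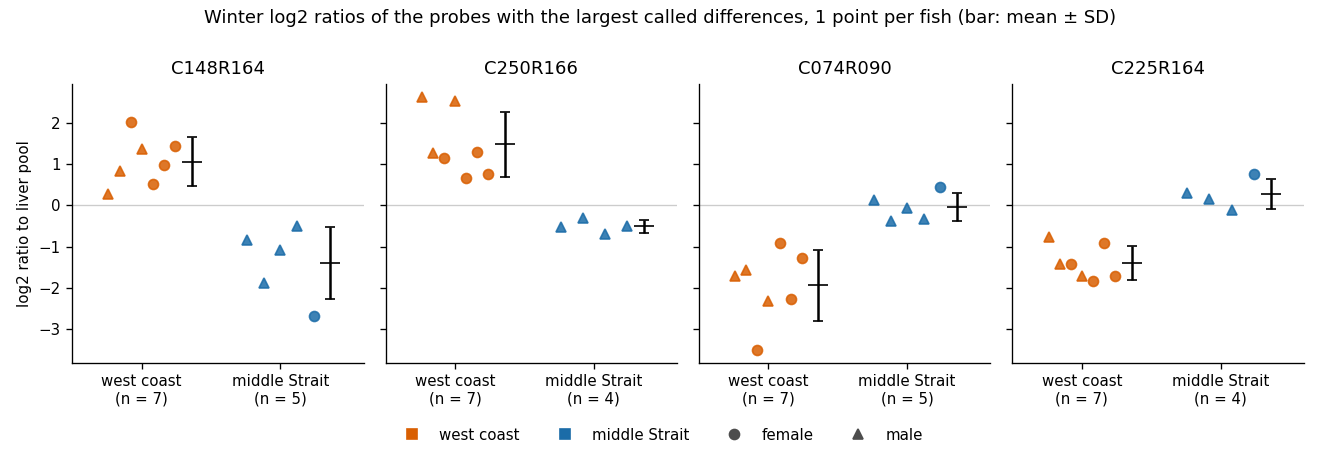
Log2 ratio to the liver pool of the 2 probes with the largest called difference in each direction, 1 point per winter fish, with mean and SD beside the points; west coast fish are at the left and circles are females. West coast fish lie above middle Strait fish at C148R164 and C250R166 and below them at C074R090 and C225R164, with no overlap.

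Among the called probes the difference had the same direction in each sex and on the shared slide. The males of the areas also differed throughout in origin and slide. In males the 82 higher probes had a median difference of 1.65 and the 10 lower ones -1.19, in females the medians were 1.43 and -1.56, and in the female pair on the shared slide 1.49 and -1.63. All probes with a value in the pair, 80 of the higher and 10 of the lower, differed in the direction of the call. These fish had chosen the probes. Over all tested probes with a value, the direction of the 12 fish was kept at 80.4% in males, 76.4% in females and 73.2% in the pair. Each of these sets is part of the 12 fish, so much of that agreement is fixed in advance. The values in females and in the pair rest on the same middle Strait female. At C148R164 the pair stood at 2.03 in the west coast female and -2.68 in the middle Strait female, and at C225R164 at -1.42 in the west coast female and 0.76 in the middle Strait female.

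Whether the area difference itself depended on sex was tested as an interaction. Of 19276 probes none was called (0%; limma, lowest adjusted p = 0.113), and 1620 had an unadjusted p below 0.05. The females of the middle Strait were a single fish in this test. In simulated data the same fit recovered 6% of 100 probes whose area difference truly differed by 2 between the sexes. The lowest unadjusted p was at C013R038. It ranged from -0.04 to 0.56 in the 4 west coast females and was 2.59 in the middle Strait female, and it ranged from 1.06 to 1.62 in the 3 west coast males and from 0.73 to 0.98 in the 4 middle Strait males. The area difference in males minus that in females was 2.97 (limma adjusted p = 0.113). C204R154 (2.41, limma adjusted p = 0.149), C102R112 (-3.42, limma adjusted p = 0.168) and C126R097 (-2.77, limma adjusted p = 0.289) were likewise not called, and at all 3 the middle Strait female lay outside the range of the other winter fish.

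C207R010 and C088R103 were followed because earlier results of these data had put them high in winter females and on the west coast in fall. They divided the winter fish by sex in both areas. C207R010 was 5.81, 2.89, 1.38 and 5.90 in the west coast females and 3.78 in the middle Strait female. It was -3.36, -3.02 and -1.13 in the west coast males and -4.22, -0.51, -1.27 and -2.13 in the middle Strait males. Every winter female lay above every winter male. That division describes the choice, since the earlier results came from the same winter fish. C088R103 was 5.36, 3.44, 1.67 and 5.68 in the west coast females and 3.97 in the middle Strait female, and it ranged from -4.08 to 0.74 in the west coast males and from -3.79 to -0.23 in the middle Strait males. With sex in the model the area difference was 0.13 at C207R010 (95% interval -1.84 to 2.10, limma adjusted p = 0.970) and 0.03 at C088R103 (95% interval -2.17 to 2.22, limma adjusted p = 0.995). The intervals allow differences of about 2 on the log2 scale either way, and the sign changed with the model. In fall C207R010 averaged 0.60 in 6 west coast females and -2.97 in 8 middle Strait females. Fall males averaged -2.41 on the west coast (n = 4) and -3.44 in the middle Strait (n = 11). C088R103 averaged 0.62 and -2.50 in the same groups of fall females, and -2.26 and -2.88 in those of fall males. The fall values also took part in the choice of these probes. Across the 212 fish of the other seasons with both values, the 2 probes correlated at Pearson r = 0.902, with arrays, slides and the pool in common.

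**Figure D4:**
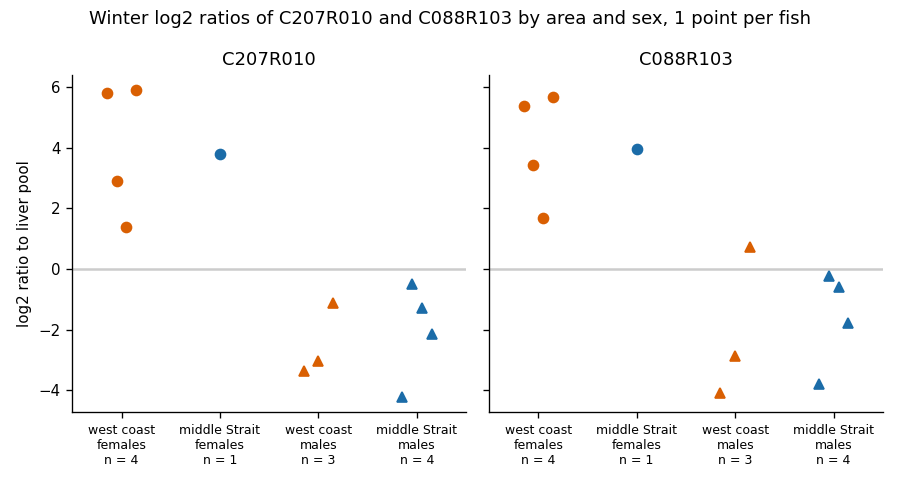
Log2 ratio of C207R010 and C088R103 to the liver pool in the winter fish by area and sex, 1 point per fish, with west coast fish left of middle Strait fish in each sex. The 5 females lie above all 7 males at both probes, and the fish of the 2 areas overlap within the males. The probes were followed for high values in winter females, so the division by sex is part of that choice.

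In fall and summer the same area labels could be compared in other fish. Fall had 10 west coast fish (6 females, 4 males, 1 of hatchery origin) and 19 middle Strait fish (8 females, 11 males, 9 of hatchery origin), and summer had 10 west coast fish of unrecorded sex (1 of hatchery origin) and 21 middle Strait fish (14 of hatchery origin), all of 2009. By stock label the fall west coast fish were 2 each of Columbia, ECVI, North, Oregon and Puget_Sound and the fall middle Strait fish 9 ECVI, 4 Fraser and 6 S_Main, with 1 stock in both. The summer west coast fish were 8 Columbia, 1 North and 1 Oregon and the summer middle Strait fish 3 ECVI, 9 Fraser and 9 S_Main, so in summer, as in winter, stock and area cannot be told apart. In fall, 95 of 17924 probes were called between the areas (0.53%; limma), and none of them was among the 92 winter probes. In summer, fitted without sex, 7503 of 17045 were called (44%; limma). West coast fall fish were longer, at 30.1 ± 2.86 cm in west coast fish and 24.6 ± 2.01 cm in middle Strait fish (SD). No fall probe was called by limma with fork length as a further covariate (858 at an unadjusted p below 0.05). Most fall west coast fish were longer than every fall middle Strait fish, so that fit could hardly tell length from area.

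Most winter probes had the same direction of difference in the other seasons. Having been chosen for large winter differences, they tend to be smaller elsewhere by that choice alone, and 16 of the 82 higher and 3 of the 10 lower probes had a larger difference in summer than in winter. In fall 68 of the 82 higher and all 10 lower winter probes kept their sign, with median differences of 0.44 and -0.71, against 57.5% of all tested probes with a fall value. In summer 78 of the 82 higher and all 10 lower probes kept their sign, with median differences of 0.96 and -0.95, against 61.9% of all tested probes with a summer value. There 64 of the 82 and 7 of the 10 were called in the winter direction, and 2 more of the 82 in the opposite one. Of all 16747 tested winter probes with a summer value, 5032 were called in the winter direction and 44.1% in either direction. The seasons shared no fish. Winter-called probes varied together across the fish of the other seasons, as given below, so these counts are not of independent probes.

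The 4 probes named above were called once in the other seasons. C250R166 averaged 0.67 ± 0.68 in west coast and 0.45 ± 0.69 in middle Strait fish in fall (SD; difference 0.32, limma adjusted p = 0.481), and 0.62 ± 0.56 in west coast and -0.13 ± 0.65 in middle Strait fish in summer (difference 0.77, limma adjusted p = 0.0115). C074R090 averaged -1.56 ± 1.21 in west coast and -0.24 ± 0.78 in middle Strait fish in fall (difference -1.36, limma adjusted p = 0.0759), and -0.52 ± 0.77 in west coast and -0.16 ± 0.69 in middle Strait fish in summer (difference -0.28, limma adjusted p = 0.416). C225R164 averaged -1.08 ± 0.87 in west coast and -0.50 ± 0.73 in middle Strait fish in fall (difference -0.68, limma adjusted p = 0.199), and -0.24 ± 0.63 in west coast and -0.12 ± 0.81 in middle Strait fish in summer (difference -0.06, limma adjusted p = 0.882). At C148R164 both areas were below the pool in summer, at -1.02 ± 0.71 in west coast and -1.73 ± 1.25 in middle Strait fish (difference 0.65, limma adjusted p = 0.217), and its fall values stand with the test between the seasons. With 1 call in 8, at C250R166 in summer, these probes kept their winter sign in all but the fall difference of C148R164.

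**Figure D5:**
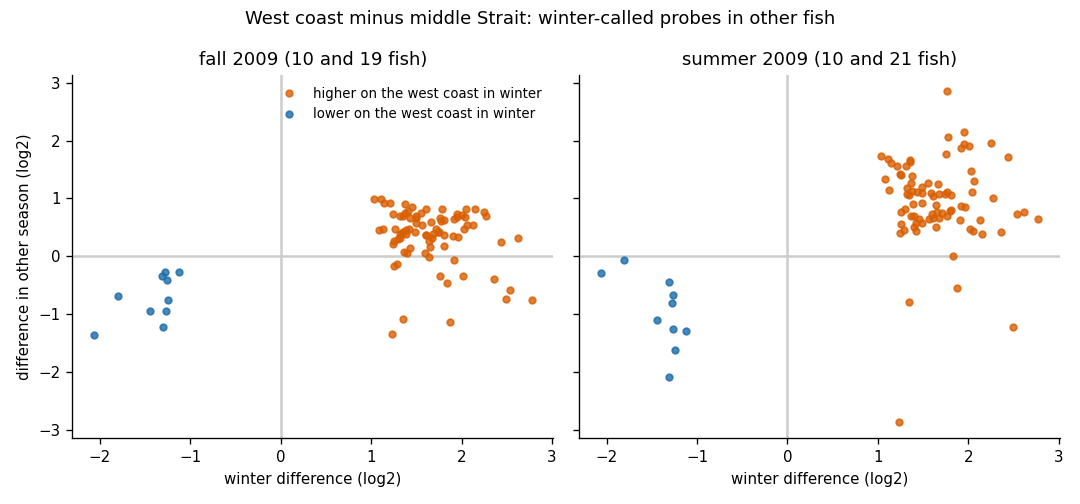
Difference of west coast minus middle Strait (log2) of the 92 winter-called probes in winter (horizontal) and in other fish (vertical) in fall 2009 and in summer 2009, 1 point per probe. Of the 82 higher probes 68 lie above 0 in fall and 78 in summer, and the 10 lower probes lie below 0 in both.

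The levels of the winter-called probes in every season are a description, since the winter values chose them: the low winter level in the middle Strait is part of that choice. For the higher probes the median of their mean ratios was 0.55 in west coast and -0.90 in middle Strait fish in winter, 0.38 in west coast and 0.09 in middle Strait fish in fall, and 0.54 in west coast and -0.44 in middle Strait fish in summer. In the 4 smolt groups of 2009 the same median lay between -0.86 and -0.39. The 10 lower probes had medians of -0.21 in west coast and 0.90 in middle Strait fish in winter, -1.08 in west coast and -0.39 in middle Strait fish in fall, and -1.09 in west coast and -0.001 in middle Strait fish in summer. These levels were not tested between seasons.

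The winter-called probes also varied together in fish that had no part in their selection. Across the 214 fish of the other seasons the median Pearson correlation was 0.501 over the 3321 pairs of higher probes, 0.363 over the 45 pairs of lower probes and -0.327 over the 820 pairs of a higher and a lower probe. Over all pairs of 7225 tested probes measured in every one of these fish it was 0.005. The lower and upper deciles of these pairs were -0.393 and 0.412, against 0.061 and 0.764 for pairs of higher probes. The pairs of all probes mix directions, while the higher and the lower probes were each sorted by direction. These correlations are a description across fish of different stages, which share slides and the pool, and probes of 1 gene were not told apart.

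Whether the area difference of winter differed from that of fall was tested in the 41 fish of both seasons, which include the 12 winter fish above. Of the west coast fish, 6 of 7 in winter and 2 of 10 in fall were of the Puget_Sound stock, and 5 and 1 were of hatchery origin. Fork length averaged 34.7 cm in west coast and 34.6 cm in middle Strait fish in winter, and 30.1 and 24.6 cm in fall. Stock, origin, catch position and length were not in this fit, and their part in the difference was not tested. Of 18415 probes, 6 were called (0.0326%; limma), 5 with a larger and 1 with a smaller value in winter. C148R164 had the largest interaction. In fall it averaged -0.30 ± 0.94 in west coast fish and 0.60 ± 0.89 in middle Strait fish (SD, n = 10 and 19), opposite in order to winter, and winter minus fall was 3.49 (SE 0.66, limma adjusted p = 0.0396). The fall difference alone, -0.75, was not called (limma adjusted p = 0.221).

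C104R148 was called in winter and in the test of the difference between seasons. In winter it ranged from 0.64 to 1.71 in west coast fish and was -0.91, -1.69, -0.77, 0.41 and -2.36 in middle Strait fish, a called difference of 2.54 (limma adjusted p = 0.0238). In fall it averaged -0.26 ± 0.82 in west coast fish and 0.51 ± 0.79 in middle Strait fish (SD, n = 9 and 19), and winter minus fall was 3.04 (SE 0.59, limma adjusted p = 0.0405). In 213 fish of the other seasons its ratio correlated with that of C148R164 at Pearson r = 0.907.

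C028R072 went the other way. In winter it averaged -0.42 ± 0.30 in west coast fish and 0.68 ± 0.38 in middle Strait fish, and in fall -0.23 ± 0.44 in west coast fish and -0.56 ± 0.31 in middle Strait fish (SD). Winter minus fall was -1.42 (SE 0.29, limma adjusted p = 0.0405), while the winter difference by itself, -1.21, was just short of a call (limma adjusted p = 0.0538). C012R050, the next by p in that direction, was not called (-1.73, limma adjusted p = 0.0556).

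None of the 4 named fall probes was called in winter. C105R058 averaged -1.15 ± 0.59 in west coast and 0.66 ± 0.95 in middle Strait fish in fall (difference -1.85, limma adjusted p = 0.0160). In winter it was low in both areas, at -2.87 ± 0.63 in west coast and -2.70 ± 0.59 in middle Strait fish (difference -0.35, SE 0.39, limma adjusted p = 0.755). C126R142 averaged -2.72 ± 1.56 in west coast and -0.84 ± 0.70 in middle Strait fish in fall (difference -1.88, limma adjusted p = 0.0449), and -2.38 ± 1.04 in west coast and -0.40 ± 0.49 in middle Strait fish in winter (difference -2.08, SE 0.47, limma adjusted p = 0.0651). Of the probes higher on the fall west coast, C182R163 differed by 1.52 in fall (limma adjusted p = 0.0396) and 0.63 in winter (limma adjusted p = 0.465). C122R034 differed by 1.45 in fall (limma adjusted p = 0.0143) and -0.35 in winter (limma adjusted p = 0.670). All 4 fall calls were lost with fork length as a covariate, which went largely with area in these fish. The differences there were 0.71 at C182R163, 1.74 at C122R034, -1.44 at C126R142 and -1.67 at C105R058. Under a fixed slide block C182R163 (limma adjusted p = 0.0962) and C126R142 (limma adjusted p = 0.216) were lost. That block compares the areas only within shared slides, which held 4 west coast and 3 middle Strait fall fish. Both probes were also lost with quantile normalization (limma adjusted p = 0.0651 and 0.0664), and in wild fish C126R142 was lost (limma adjusted p = 0.0675).

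The summer probes with the largest differences spread widely among west coast fish in summer and were called in none of 4 cases in winter. C192R100 had a median of -5.27 in summer west coast fish, with a range of -7.25 to 0.88, and a median of 0.21 in summer middle Strait fish (difference -3.83, limma adjusted p = 6.94e-05). In winter it ranged from 0.44 to 1.80 in west coast fish and from -0.17 to 1.62 in middle Strait fish (difference 0.23, limma adjusted p = 0.852). C175R046 likewise differed by -3.54 in summer (limma adjusted p = 9.18e-05) and by -0.21 in winter (limma adjusted p = 0.849). C024R002 and C244R087 were higher in west coast fish in summer, by 3.72 (limma adjusted p = 7.56e-05) and 3.63 (limma adjusted p = 0.000178). Their winter differences were 1.80 (limma adjusted p = 0.155) and 1.57 (limma adjusted p = 0.259), not called. Under a fixed slide block the summer calls of C024R002 (2.58, limma adjusted p = 0.112) and C244R087 (3.68, limma adjusted p = 0.102) were lost, while C192R100 (-6.12) and C175R046 (-6.45) stayed called. Only 1 summer slide held both areas, so these differences rest on at most 1 west coast and 3 middle Strait fish. In wild fish only, C244R087, C192R100 and C175R046 fell just short (limma adjusted p = 0.0567, 0.0527 and 0.0573).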

How the data were processed

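Liver RNA of single fish carried one Alexa dye and the pool of livers another on 2-colour arrays, with no swap named, per the labels' protocols. The log2 ratios deposited by the authors were used as given; their base and numerator were inferred from the values (slope of probe mean on probe variance -0.364 over 16802 probes). The sources used here do not give how spots were quantified and normalized or why cells were left empty. A further deposited table held the same log2 values (0 of 306459 differed in the winter fish) and, beside them, 18 control probes.

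Of 43567 probes, those measured on at least 80% of the arrays of a comparison were fitted with limma 3.58.1 in R 4.3.3 (lmFit, eBayes), with sex as a covariate (not in summer) and slide as a random block. The slide correlation, 0.144, was estimated by duplicateCorrelation on all 226 fish and 3000 drawn probes. A call needed p below 0.05 after Benjamini-Hochberg adjustment over every tested probe. Body measures were compared by exact permutation with scipy 1.17.1 in Python 3.11.15. The number of arrays limits the precision, and p-values measure the spread between fish that partly share a catch.

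The fish, the followed probes and the comparisons were chosen with earlier results of these data known. Named were the 2 largest called differences per direction, filled up with the lowest p where fewer were called, and C207R010 and C088R103. The gene lists could not be applied, as the 43567 probes are not paired with genes here. Tested on simulated ratios over 19489 probes, the winter fit recovered 26% of 100 differences of 1 and 88% of 100 of 2 (log2), with 3 unchanged probes called. The simulated errors were normal, independent between probes, and had the slide correlation that the fit assumes. These counts hold for that setting, while probes of the data vary together. Alternatives changed the slide term, normalization, filter, covariates and fish; those with condition factor, with centring by spot column, and 2 for summer were added after the data were seen.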

Additional observations from a re-analysis of the deposited data

Results flagged for a closer look

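Of 50 groups of values tested, 5 held a fish far from the others, where chance gives about 1 in 20. In 3 of these the fish was the only middle Strait female of winter, at 2.59 for C013R038, 2.24 for C204R154 and -3.54 for C102R112. A west coast winter female stood apart at 0.022 for C126R097, and a west coast fall fish at -1.66 for C122R034. These probes were named from the same fish. C013R038, C204R154, C102R112 and C126R097 had the lowest p of the interaction with sex, where the middle Strait female stood alone. The rate of 1 in 20 is thus no yardstick for them.

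Winter and fall differed in the area difference by test at C148R164 (winter minus fall 3.49), C104R148 (3.04) and C028R072 (-1.42). The fish of these seasons also differed in stock, origin and length.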

How the results depend on the processing

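Winter calls, 92 in the model used, numbered 345 with no slide block, 182 with the slide correlation of the winter fish, 55 without sex, and 0 with slide as a fixed block, all fish in one fit, males only, females only, or condition factor as a covariate; leaving out 1 fish gave 10 to 150. They numbered between 66 and 95 under the other settings. With origin as a covariate 60 of 84 were higher (71.4%, against 89.1%), and the cause was not tested. Of the 92, 57 were among the 84 with origin, 55 among 66 with fork length and 66 among 82 with the number of measured probes. With quantile normalization 70 were among 79, with probes on all 12 arrays 87 among 95, and with at least 3 fish of each area 81 among 82. Centring each array within 10 bands of spot columns gave 80, of which 76 were among the 92; before it the median difference of all tested probes lay between -0.24 and 0.10 by band.

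The differences at C148R164, C250R166, C074R090 and C225R164 kept their sign in every alternative that gave a value, though C148R164 was 4.71 and C074R090 -3.95 with slide fixed and C225R164 was -0.96 with condition factor. Those at C207R010 and C088R103, never called, turned negative with no slide block (-0.25 and -0.30), the winter slide correlation (-0.060 and -0.14), quantile normalization (-0.45 and -0.44), fork length (-0.21 and -0.21), males only (-0.47 and -0.47) and condition factor (-3.06 and -4.24), and C088R103 with column centring (-0.042). They were larger with slide fixed (2.03 and 1.40), all fish in one fit (2.15 and 1.97) and no sex covariate (2.32 and 2.10). Leaving out 1 fish they ranged from -0.28 to 0.44 and from -0.75 to 0.61.

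Fall calls, 95 in the model used, numbered 29 with quantile normalization, 425 with slide fixed, 499 in wild fish and 0 with fork length. Summer calls, 7503, numbered 3677 with slide fixed and 1470 in wild fish. With slide fixed the area difference rests on the slides that held both areas. These carried 4 west coast and 3 middle Strait fish in fall, and 1 west coast and 3 middle Strait fish in summer. The 6 calls of winter minus fall became 70 with no slide block and 11 with quantile normalization. Condition factor in males differed by 0.114 (exact permutation, adjusted p = 0.0571).

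No paired analysis was possible because the labels give no replicate numbers that pair fish of the 2 areas; shared slides were used as the block instead. With slide fixed, 474 winter probes, C250R166 among them, lack a female of the shared pair and gave no value. C250R166 and C225R164 gave no value with probes measured on all 12 arrays, nor did C250R166 in females or C182R163 in fall with probes measured on all arrays.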

Other observations

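The 18 control probes of the further deposited table gave 140 values in the winter fish, with array medians between -0.08 and 0.53.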
